A study of Mus musculus with 4 samples.

Results

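Of 14187 genes with a mean estimated count of at least 50 over 4 RNA sequencing libraries, 72 differed at least 2-fold in the same direction between a Jaml hairpin line and a control hairpin line in both pairs of libraries, 1 pair without added glucose and 1 pair in high glucose. This is 0.508% of the genes measured. The Jaml hairpin line, called the hairpin line below, was higher for 24 of them (0.169%) and lower for 48 (0.338%). Another 64 genes were at least 2-fold apart in both pairs but in opposite directions. The ratios themselves chose the 72 genes, so they are given here as a description and carry no test.

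The libraries came from MPC, an immortalised mouse podocyte line that grows at 33 °C with interferon-gamma and differentiates at 37 °C without it. Per the labels, the 4 cultures were sh-NC (control hairpin), sh-NC/HG (control hairpin with D-glucose at 40 mmol/L, for 24 h per the design text), sh-JAML (hairpin against Jaml) and sh-JAML/HG (that hairpin with the same glucose exposure). Each group was 1 library, and all 4 cultures shared the differentiation protocol and carried a hairpin. The sources used here do not state how the hairpins were delivered, whether a line was 1 clone, or any osmotic control. The hairpin sequence and any other difference between the lines cannot be told apart with this design.

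Total estimated counts ran from 79330461 to 94341975 per library. Jaml had a count of 0 in all 4 libraries, under a floor of 0.129 to 0.151 CPM, the count scaled to library size, so its knockdown could not be checked in these data. Of 11 podocyte markers 7 passed the count minimum, with summed levels of 1764, 2021, 1570 and 1542 CPM, and the podocyte factor Tcf21 was at 0. Of 14 tubule markers 6 passed, with summed levels of 1051 to 1711 CPM. Among the libraries sh-NC/HG was the most distinct, with 617 genes at least 2-fold above and 357 at least 2-fold below the mean of the other libraries, against at most 160 and 241 for any other library. For 43 of the 72 genes (19 higher, 24 lower) the 2-fold difference was also present when both hairpin-line libraries were set against sh-NC alone. For sh-JAML the rule had already set that difference, so this count describes the values that chose the genes.

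Jaml, a junctional adhesion molecule of the immunoglobulin superfamily, is best known on leukocytes, where it binds the coxsackie and adenovirus receptor on epithelial cells. Podocytes wrap the glomerular capillaries with actin-rich foot processes, and their junctions, matrix contacts and cytoskeleton set the filtration barrier. A short hairpin RNA is processed into a guide that directs cleavage of matching messenger RNAs. Guides can also lower transcripts that match only at the seed. The hairpin sequences were not used here.

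Sequences are shown for 1 microRNA and 3 promoters. Mir155hg (chr16:84703167-84715245, build mm10), the host transcript of miR-155, was under the floor of 3 fragments in both hairpin-line libraries, and its span holds both mature arms, shown with the seed (bases 2 to 8) in capitals. Both arms lie on the plus strand, at chr16:84714143-84714165 and chr16:84714182-84714202 (RefSeq, GRCm38.p6). The libraries measured the host transcript and not the mature arms. Pde4d and Gm27029, both lower, also span annotated microRNA hairpins.
mmu-miR-155-5p: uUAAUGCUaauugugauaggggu
mmu-miR-155-3p: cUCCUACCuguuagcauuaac

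RefSeq promoters, 250 bases before to 50 after a start, matched 38 of the 72 genes with 48 promoters, and 9964 of all genes tested with 12725 promoters. The AP-1 site (TGACTCA, either strand) was in 12.5% of the 48 and in 3.74% of all promoters. It occurred in promoters of genes from both directions, among them Emp1 (higher) and Fam107b (lower), the gene with the highest mean count in each direction. The NF-kB site (GGGANNNNCC, either strand) was in 14.6% of the 48 against 26.6% of all, and the interferon-stimulated response element (TTTCNNTTTC, either strand) in 4.17% against 3.06%. The 4.17% is a single site counted in 2 overlapping promoters of Cenpx. The TATA box (TATAAA, either strand) was in 10.4% against 7.06%, and the cyclic AMP response element (TGACGTCA) in 0% against 3.05%. A CpG observed over expected ratio of at least 0.6 was found in 37.5% of the 48 promoters (50% of those higher, 33.3% of those lower) and in 69.4% of all. The promoters of all genes were not matched for expression level, which was lower among the 72 than among all genes. A match is only a match of letters. The promoters of Emp1, Fam107b and Acod1 are shown because they carry the AP-1 site, the AP-1 site, and an NF-kB site with a TATA box, all in capitals, on GRCm38.p6 and the plus strand. The Emp1 promoter is chr6:135362681-135362980, with the site on the minus strand at position -145 from the start. The Fam107b promoter is chr2:3713208-3713507, with the site at -36. The Acod1 promoter is chr14:103046762-103047061, with the NF-kB site at -55 and the TATA box at -28.
Emp1: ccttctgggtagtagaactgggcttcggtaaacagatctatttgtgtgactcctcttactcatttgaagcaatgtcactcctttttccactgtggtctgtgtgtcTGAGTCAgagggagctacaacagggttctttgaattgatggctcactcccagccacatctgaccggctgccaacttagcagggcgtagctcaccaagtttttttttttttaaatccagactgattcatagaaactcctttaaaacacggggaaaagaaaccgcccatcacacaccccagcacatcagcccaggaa
Fam107b: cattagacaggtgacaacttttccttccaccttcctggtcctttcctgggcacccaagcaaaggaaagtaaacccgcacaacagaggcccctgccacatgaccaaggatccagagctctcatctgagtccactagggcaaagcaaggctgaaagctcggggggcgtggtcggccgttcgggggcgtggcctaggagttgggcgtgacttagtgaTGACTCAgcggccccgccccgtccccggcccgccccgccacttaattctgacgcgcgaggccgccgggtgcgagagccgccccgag
Acod1: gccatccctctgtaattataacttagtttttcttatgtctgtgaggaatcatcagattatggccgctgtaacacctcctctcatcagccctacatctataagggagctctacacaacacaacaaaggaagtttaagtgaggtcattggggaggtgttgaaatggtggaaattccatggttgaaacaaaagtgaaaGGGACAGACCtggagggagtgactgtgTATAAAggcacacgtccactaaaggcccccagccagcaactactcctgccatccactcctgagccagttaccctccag

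Most of the 72 genes were weakly expressed. The median of their mean counts was 99.1, against 2626 for all genes tested, and 51.4% had a mean count under 100, against 8.52% of all. For 21 of the 72, all lower in the hairpin line, the mean reached 50 only with sh-NC/HG included, so these entered through a library in which they were high. Only 10 had a mean count of at least 1000, which is 0.103% of the 9675 genes at that level. In 20 of the 72 at least 10% of the exon bases also belong to another annotated gene, where a read can be assigned to either gene (27.8%, against 17.2% of all genes). The remaining 52 (15 higher, 37 lower) are described first. For comparison, a single pair taken alone had 1.31% of all genes past the threshold upwards and 1.4% downwards without added glucose, and 2.81% and 4.78% in high glucose.

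**Figure D1:**
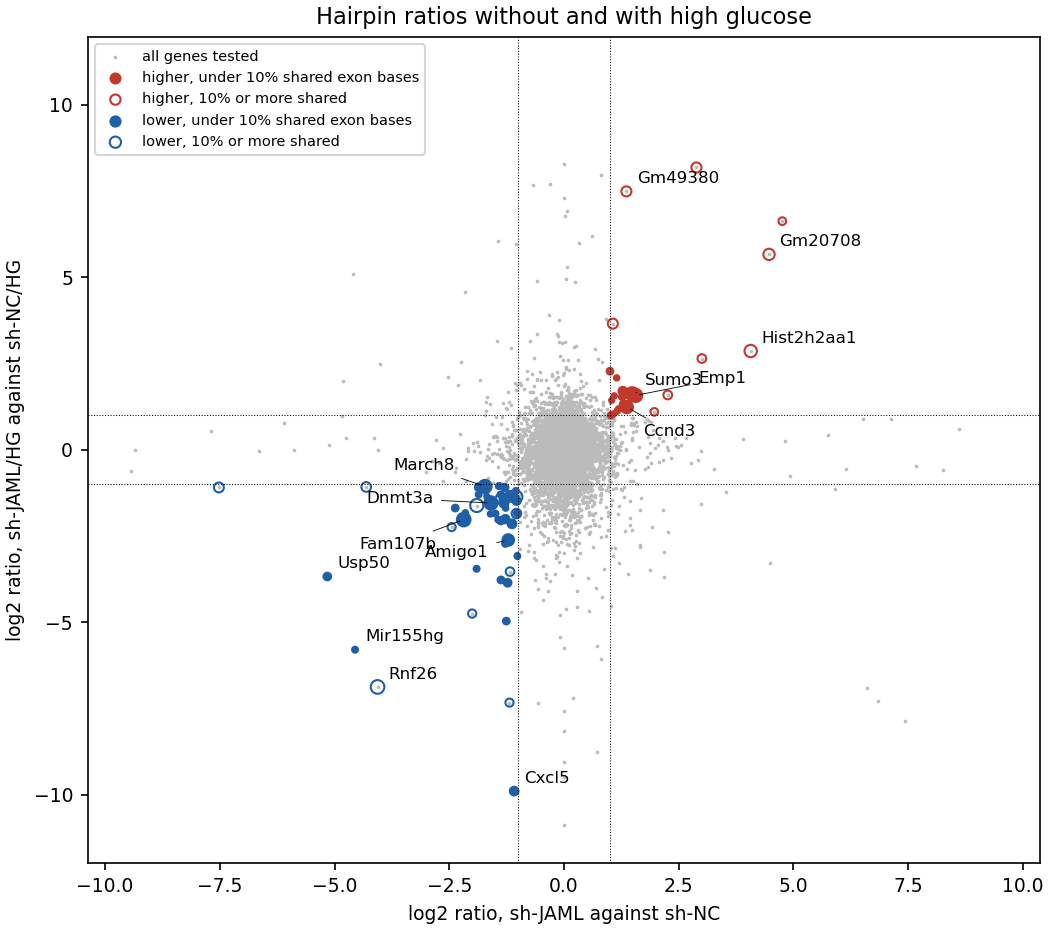
Log2 ratio of sh-JAML to sh-NC (x axis) against that of sh-JAML/HG to sh-NC/HG (y axis) for each of the 14187 genes, scaled by TMM with a prior count of 1; dotted lines mark 2-fold and larger points mark higher mean counts. The 24 red points (higher) and 48 blue points (lower) are the genes past both lines, and many of the coloured points far from the centre are open, which marks genes that share at least 10% of their exon bases.

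A set of 8 genes combined a mean count of at least 1000 with little exon sharing. The hairpin line was higher for Emp1, Sumo3 and Ccnd3, and lower for Fam107b, Dnmt3a, March8, Amigo1 and Cenpx. For all 8, each hairpin-line library lay at least 2.09-fold from each control-line library, so the 4 libraries split by hairpin with or without sh-NC/HG. The rule itself set a 2-fold difference within each pair, so this split is a description. None of the 8 was 2-fold apart with glucose in either line. Levels below are TMM-scaled CPM in the order sh-NC, sh-NC/HG, sh-JAML and sh-JAML/HG, and each ratio has an exact 95% interval that covers counting error only.

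Emp1 (ENSMUSG00000030208, chr6:135362545-135383173) encodes a tetraspan epithelial membrane protein and stood at 38.1, 41.9, 112 and 125 CPM. Both hairpin-line libraries were high and both control libraries low, by 2.95-fold (2.72 to 3.21) without added glucose and 2.98-fold (2.77 to 3.22) in high glucose. The ratio was thus nearly the same size at both glucose levels. Sumo3 (ENSMUSG00000020265, chr10:77606097-77618331), a small ubiquitin-like modifier, stood at 43.7, 35.8, 123 and 110.3 CPM. Its ratios were 2.80-fold (2.59 to 3.03) and 3.08-fold (2.85 to 3.34), with intervals that overlap between the pairs. Ccnd3 (ENSMUSG00000034165, chr17:47505051-47599691) encodes cyclin D3, a partner of CDK4 and CDK6 in the G1 phase, and stood at 20.8, 23.1, 53.6 and 54.7 CPM. The hairpin line was 2.58-fold (2.31 to 2.90) and 2.36-fold (2.13 to 2.62) higher, again without overlap between the lines.

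Fam107b (ENSMUSG00000026655, chr2:3570488-3782142), the most abundant of the 72 by mean count and of poorly known function, stood at 174, 166, 38.3 and 40.7 CPM. The hairpin line was 4.55-fold (4.20 to 4.92) and 4.07-fold (3.78 to 4.38) lower. Dnmt3a (ENSMUSG00000020661, chr12:3806007-3914443) encodes a de novo DNA methyltransferase and stood at 121, 121, 40.1 and 41.5 CPM. The control libraries were level with each other, as were the hairpin-line libraries, and the ratios were 3.02-fold (2.78 to 3.27) and 2.91-fold (2.70 to 3.15). March8 (ENSMUSG00000025702, chr6:116338024-116409540), a membrane-bound ubiquitin ligase that takes surface receptors to lysosomes, stood at 124, 102, 37.4 and 49.0 CPM. Its ratio was 3.30-fold (3.04 to 3.58) without added glucose and 2.09-fold (1.94 to 2.25) in high glucose, so the intervals do not overlap.

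Amigo1 (ENSMUSG00000050947, chr3:108186335-108192286), a leucine-rich adhesion protein that associates with the Kv2.1 potassium channel in neurons, stood at 22.03, 41.4, 9.48 and 6.75 CPM. It was highest in sh-NC/HG and lowest in sh-JAML/HG, and its ratio was 2.32-fold (1.96 to 2.77) without added glucose against 6.13-fold (5.16 to 7.40) with it. Cenpx (ENSMUSG00000025144, chr11:120710942-120713738), a histone-fold protein of the kinetochore and of the Fanconi anaemia pathway, stood at 17.1, 18.7, 7.60 and 7.34 CPM. The lines did not overlap, and the ratios were 2.24-fold (1.85 to 2.74) and 2.55-fold (2.12 to 3.08).

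**Figure D2:**
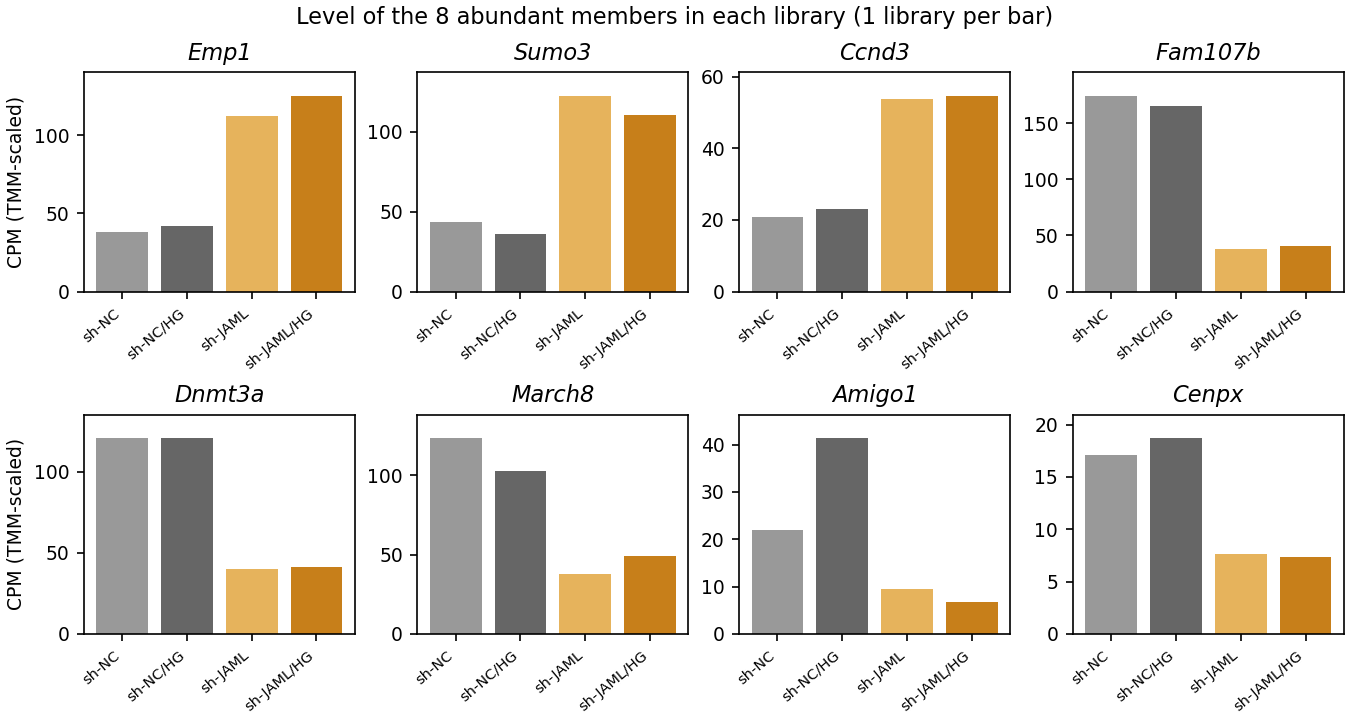
TMM-scaled level in CPM (y axis, from 0, 1 scale per gene) of the 8 abundant genes in each of the 4 libraries, 1 bar per library and no error bar since each group is 1 library. Emp1, Sumo3 and Ccnd3 are high in both orange bars (Jaml hairpin), and the other 5 genes are high in both grey bars (control hairpin).

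Relatives of these 8 genes, listed after their values were seen, did not share the pattern. Of 17 relatives, 14 passed the count minimum and 0 of them reached 2-fold in either pair. Against the background of 2.71% of all genes at 2-fold without added glucose and 7.59% in high glucose, 0 of 14 is no result about the relatives. Sumo2 stood at 163, 177, 164 and 160.0 CPM, with log2 ratios of 0.004 and -0.15. Per kilobase of exon, mean levels over the libraries were 95.6 CPM for Sumo2 and 21.3 for Sumo3, so Sumo3 was the less abundant of these by this measure. Exon length is that of all annotated exons of a gene merged, which can exceed the length of the transcripts expressed. Ranks by level per kilobase, here and below, are therefore approximate. Among D-type cyclins, Ccnd1 was lower with the Jaml hairpin by a log2 ratio of -0.76 and -0.80, the largest of any relative in each pair, and Ccnd2 gave -0.10 and 0.73. Mean levels per kilobase were 11.5 CPM for Ccnd1, 14.0 for Ccnd2 and 4.34 for Ccnd3. Among DNA methyltransferases, the maintenance enzyme Dnmt1 had log2 ratios of 0.06 and -0.28, and the second de novo enzyme Dnmt3b had 0.18 and -0.49. Mean levels per kilobase were 58.4 CPM for Dnmt1, 4.86 for Dnmt3a and 1.38 for Dnmt3b. Cenps, the histone-fold partner of Cenpx, had log2 ratios of -0.32 and -0.15.

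**Figure D3:**
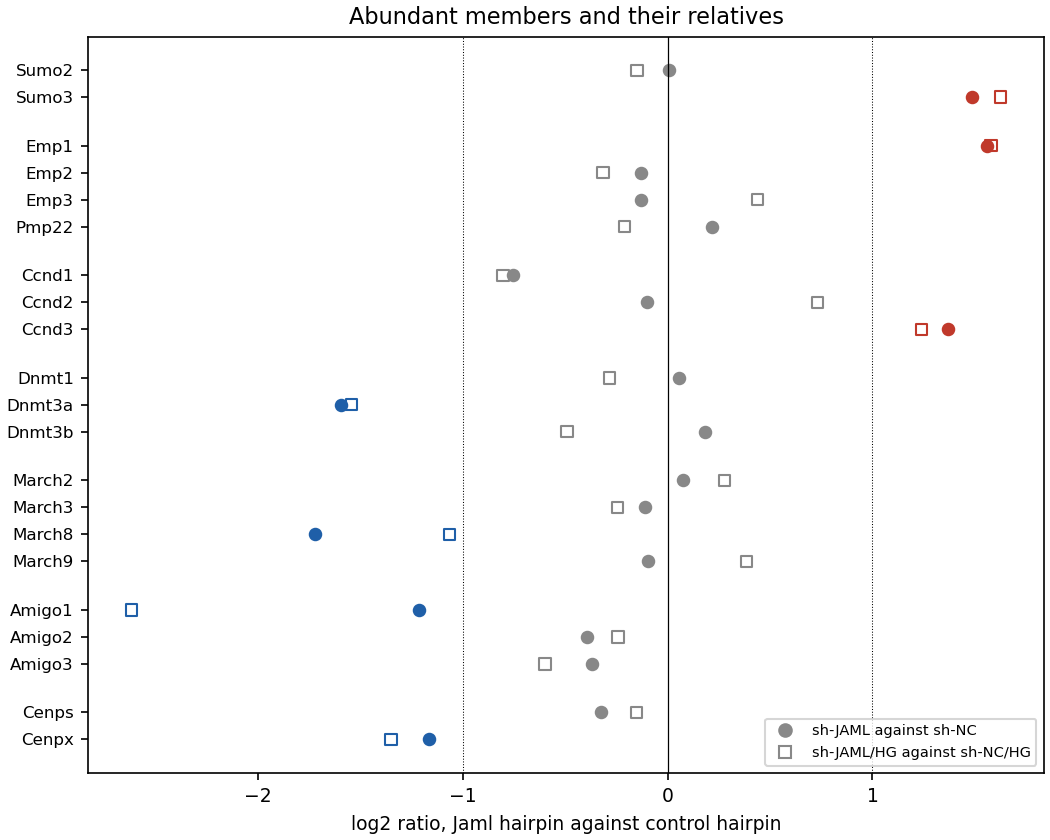
Log2 ratio of the Jaml hairpin line to the control line (x axis) for 7 of the abundant genes and their relatives past the count minimum, with circles for the pair without added glucose and squares for the pair in high glucose. The coloured genes lie past the dotted 2-fold lines in both pairs and every grey relative lies inside them; Fam107b is left out because its relative Fam107a was under the minimum.

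The other genes with little exon sharing had low counts, and their ratios are less precise. Over all 72, the counting interval lay on the far side of 1 in both pairs for 46 (16 higher, 30 lower) and at or past 2-fold in both pairs for 13. The libraries of the 2 lines did not overlap for 67 of the 72, against 35.2% of all genes tested, a count the rule itself favours. The 5 that overlapped were all lower in the hairpin line: Pcdhga5, Myo15, Myh14, Fam131c and Fam167a. In 16 genes at least 1 library was under the floor of 3 fragments, and in 4 of these a library was at 0.

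Among the 12 other higher genes with little exon sharing, 8 have only a predicted or clone name and 4 are named. Fn3k (ENSMUSG00000025175), a kinase that phosphorylates fructosamines on glycated proteins and so leads to their repair, stood at 1.94, 1.30, 4.73 and 4.25 CPM. The hairpin-line libraries were both above the control libraries, by 2.43-fold (1.68 to 3.71) and 3.25-fold (2.17 to 5.18). Its relative Fn3krp had log2 ratios of 0.22 and 0.19, with 23.3, 23.9, 27.2 and 27.3 CPM. Olfr1318, of the olfactory receptor family, stood at 1.38, 1.29, 3.43 and 3.22 CPM and was 2.47-fold (1.55 to 3.94) and 2.49-fold (1.60 to 3.98) higher. The secreted neurotrophic factor gene Cdnf stood at 0.365, 0.472, 0.849 and 1.09 CPM and the germ-cell gene Tex15 at 0.655, 0.461, 1.32 and 2.28 CPM. Their intervals without added glucose, 0.949 to 6.87 for Cdnf and 0.983 to 4.20 for Tex15, include 1. The 8 predicted genes had ratios of 2.03 to 2.55 without added glucose and 2.002 to 4.25 with it, and for 2 of the 8 the interval lay past 1 in both pairs.

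The other lower genes with little exon sharing were 28 named genes and 4 with predicted names. The interval lay past 1 in both pairs for 15 of the 28. Several of the 28 are known for roles in immune cells, a grouping made after the values were seen. Mir155hg, the host of miR-155, which is induced in activated lymphocytes and macrophages, stood at 1.15, 1.96, 0.0374 and 0.0237 CPM. Both hairpin-line libraries were under the floor, with ratios of 23.5-fold (3.77 to 956) lower without added glucose and 55.6-fold in high glucose, where the interval starts at 10.9. Cxcl5, a chemokine that draws neutrophils, stood at 0.252, 11.3, 0.112 and 0 CPM. One library, sh-NC/HG, held nearly all of its counts, and the interval of the ratio in high glucose starts at 64.2-fold. The ratio without added glucose, 2.12-fold, had an interval of 0.413 to 26.5 that includes 1. Acod1, which makes itaconate in activated macrophages, stood at 0.718, 5.64, 0.299 and 0.379 CPM. It too was high in sh-NC/HG, with ratios of 2.34-fold (0.850 to 7.47) and 14.5-fold (7.37 to 35.4). Vtcn1, an inhibitory ligand of the B7 family, was also highest there, at 0.315, 3.69, 0.125 and 0.107 CPM, and under the floor in both hairpin-line libraries. Without added glucose its interval, 0.541 to 30.7, includes 1. Each of these 4 genes is among the 21 that met the count minimum only through sh-NC/HG, as are Des, Col6a3 and Lama1 below.

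Another 4 genes of this kind were measured at 0.499 to 5.52 CPM. Lcp1, the leukocyte actin bundler L-plastin, stood at 2.17, 5.52, 0.886 and 1.36 CPM, with ratios of 2.43-fold (1.36 to 4.44) and 4.03-fold (2.66 to 6.21). Pik3r5, a regulatory subunit of PI3-kinase gamma, stood at 1.51, 3.33, 0.574 and 0.793 CPM, and was 2.60-fold (1.25 to 5.41) and 4.15-fold (2.44 to 7.50) lower. Ackr3, a scavenging receptor for the chemokine CXCL12, stood at 2.74, 3.82, 1.34 and 1.36 CPM, with 2.05-fold (1.25 to 3.33) and 2.79-fold (1.81 to 4.39). In all 3 genes both hairpin-line libraries were below both control libraries. Aim2, a sensor of cytosolic DNA, stood at 1.04, 1.23, 0.499 and 0.533 CPM, and its interval without added glucose, 0.955 to 5.04, includes 1. Of 9 leukocyte markers 4 passed the count minimum, with summed levels of 99.0, 87.0, 95.8 and 88.3 CPM, none of the 9 was at 0 in all libraries, and none was among the 72. Csf1r, at 62.2, 50.1, 56.0 and 56.3 CPM, and Cd14, at 30.9, 29.4, 34.1 and 28.8 CPM, carried these sums. Cd68 was level as well, at 3.12, 3.85, 2.99 and 3.10 CPM. Lyz2, Adgre1 and Ptprc were lowest in sh-JAML/HG. Lyz2, the macrophage lysozyme, stood at 2.14, 3.03, 2.02 and 0.0592 CPM, with an interval of its ratio in high glucose that starts at 11.02-fold lower. Adgre1, the F4/80 antigen, stood at 0.201, 0.515, 0.287 and 0 CPM, with an interval in high glucose that starts at 2.52-fold lower. The pan-leukocyte marker Ptprc stood at 0.315, 0.172, 0.299 and 0 CPM. The myeloid adaptor Tyrobp, outside the 9, stood at 0.164, 0.225, 0.0374 and 0 CPM, under the floor in both hairpin-line libraries. In high glucose the intervals of Ptprc (from 0.598) and Tyrobp (from 0.831) include 1, so their counts are too low to show a difference. In bulk libraries such as these, fewer cells of a type and less RNA per cell cannot be told apart, and the part of other cells in these 8 genes was not tested.

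Plcl1, a phospholipase C-like protein without catalytic activity, stood at 2.97, 7.22, 1.35 and 1.62 CPM and was 2.19-fold (1.38 to 3.62) and 4.43-fold (3.08 to 6.68) lower. Pde4d, a cyclic AMP phosphodiesterase, stood at 1.15, 2.39, 0.212 and 0.734 CPM, with 5.17-fold (1.98 to 23.1) and 3.22-fold (1.79 to 5.93). The lines did not overlap in either gene, and the other measured PDE4 genes gave log2 ratios of 0.06 and -0.11 (Pde4a) and -0.20 and 0.13 (Pde4b). Spry4, an inhibitor of receptor tyrosine kinase signalling, stood at 1.21, 1.18, 0.324 and 0.474 CPM and was 3.63-fold (1.61 to 12.1) and 2.46-fold (1.20 to 5.86) lower. Usp50, of the ubiquitin-specific peptidase family, stood at 3.08, 3.62, 0.0749 and 0.272 CPM, with 35.7-fold (8.16 to 259.8) and 12.8-fold (5.59 to 35.6). It had the largest ratio without added glucose among the 52 genes with little exon sharing, and its sh-JAML library was under the floor.

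Des, the intermediate filament desmin and a mesangial marker, stood at 0.453, 2.32, 0.112 and 0.201 CPM. It was high in sh-NC/HG, and its interval without added glucose, 0.940 to 43.2, includes 1. Col6a3, a chain of collagen VI, stood at 0.730, 3.39, 0.275 and 0.237 CPM, high in sh-NC/HG as well. Without added glucose its interval, 0.850 to 7.47, also includes 1. The other collagen VI chains were highest in sh-NC/HG too, at 82.1, 263, 91.8 and 90.7 CPM for Col6a1 and 2.09, 12.5, 3.23 and 3.39 CPM for Col6a2. They were not lower in sh-JAML than in sh-NC. Lama1, a laminin chain of the embryonic glomerular basement membrane, stood at 0.239, 2.10, 0.112 and 0.237 CPM, while Lama5, of the mature membrane, stood at 1269, 1248, 1138 and 1195 CPM. For Lama1 the interval without added glucose, 0.413 to 26.5, includes 1. Lama2, Lama3 and Lama4 were under the count minimum, each with its highest level in sh-NC/HG. Wasf3, an activator of Arp2/3, stood at 1.37, 2.70, 0.674 and 0.746 CPM and was 2.02-fold (0.985 to 4.01) and 3.58-fold (2.04 to 6.62) lower, with 1 just inside the first interval. Its relatives had log2 ratios of -0.07 and -0.63 (Wasf1) and -0.09 and -0.05 (Wasf2). Gas7, which binds actin and membranes, stood at 3.83, 2.15, 1.048 and 1.01 CPM and Misp, a spindle-positioning protein, at 1.79, 2.34, 0.724 and 1.09 CPM. For both, the interval lay past 1 in both pairs. Summed mesangial and fibroblast markers, 6 of 11 past the minimum, were 1238, 833, 877 and 883 CPM, and Lum, Ren1 and Itga8 were at 0. Acta2 made up most of each sum, at 1071, 678, 730.3 and 743 CPM. The fibroblast proteoglycan Dcn stood at 0.428, 6.45, 0.799 and 0.580 CPM, high in sh-NC/HG as Des, Col6a3 and Lama1 were. The part of other cells in these genes was not tested.

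The retinol dehydrogenase family member Dhrs9 stood at 2.12, 3.91, 0.998 and 1.47 CPM and the cytochrome P450 Cyp2s1 at 1.41, 1.92, 0.399 and 0.900 CPM. Both were lower in both hairpin-line libraries, by 2.11-fold (1.22 to 3.81) and 2.65-fold (1.75 to 4.14) for Dhrs9, and 3.46-fold (1.57 to 8.97) and 2.12-fold (1.23 to 3.89) for Cyp2s1. The testis kinase gene Tssk4, the transcription factor gene Sp5, Gad1os, Myo15, Myh14, Dnajc22, Fam131c and Fam167a had mean counts of 50.25 to 86.5. The 4 predicted genes among the lower ones had ratios of 2.42 to 2.71 without added glucose and 2.75 to 6.57 with it, with the interval past 1 in both pairs for 1 of the 4.

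The 20 genes with at least 10% shared exon bases (9 higher, 11 lower) were set beside the summed counts of all genes that share their exons. The sum stayed at least 2-fold the same way in both pairs for 2 of the 20 and not for 18. The 2 were Hist2h2aa1, a core histone gene, and Rnf26, a ubiquitin ligase gene. Hist2h2aa1 stood at 0.642, 2.85, 10.96 and 20.9 CPM and its locus at 7.88, 11.5, 24.1 and 30.6 CPM, 3.06-fold and 2.65-fold higher. Histone genes as a list had summed levels of 485, 257, 422 and 387 CPM, in another order than this locus. Near-identical histone copies can share reads, so the value is uncertain. Rnf26 stood at 12.1, 65.4, 0.711 and 0.545 CPM and its locus at 17.2, 69.4, 7.32 and 6.19 CPM, 2.34-fold and 11.2-fold lower. The overlapping predicted gene Gm49380 went the other way at 1.42, 0.0107, 3.67 and 4.06 CPM, but with Usp2 and the other genes on its exons it summed to 19.6, 76.6, 10.5 and 8.76 CPM.

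Nnt, the mitochondrial transhydrogenase, showed how a sum can differ from a single entry. The annotation holds it as 2 genes, of which the one among the 72 (ENSMUSG00000025453, chr13:119335448-119408997) had counts of 1850, 1923, 499 and 568. The other stood higher in the hairpin line, at 75.1, 81.7, 94.6 and 94.1 CPM against 23.3, 20.6, 6.23 and 6.72 CPM. Summed counts were 7816, 9540, 8079 and 8519, a log2 ratio of 0.03 and -0.02. Afmid, a formamidase of tryptophan breakdown, and the predicted gene Gm20708, which shares exons with Afmid and Syngr2, went opposite ways, at 12.5, 17.5, 6.05 and 6.79 CPM and 0.315, 0.193, 7.21 and 10.4 CPM. The locus of Afmid summed to log2 ratios of 0.15 and -0.49, and that of Gm20708 to -0.07 and 0.25. Cfb, complement factor B, stood at 3.44, 6.11, 1.32 and 2.28 CPM with 0, 0.0751, 1.82 and 0.426 CPM for Gm20547 on its exons, and summed to -0.13 and -1.19. Prnd, a prion-like gene, summed with the Prn entry to -0.54 and -1.21, and an entry of the junctional adhesion gene Igsf5 summed with the other Igsf5 entry and Pcp4 to -0.21 and 0.16. Pcdhga5 and Pcdhga12 share their constant exons with the gamma-protocadherin cluster, whose sum gave -0.03 and -0.22. With these sums, 54 of the 72 (16 higher, 38 lower) either shared little or stayed past the threshold.

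**Figure D4:**
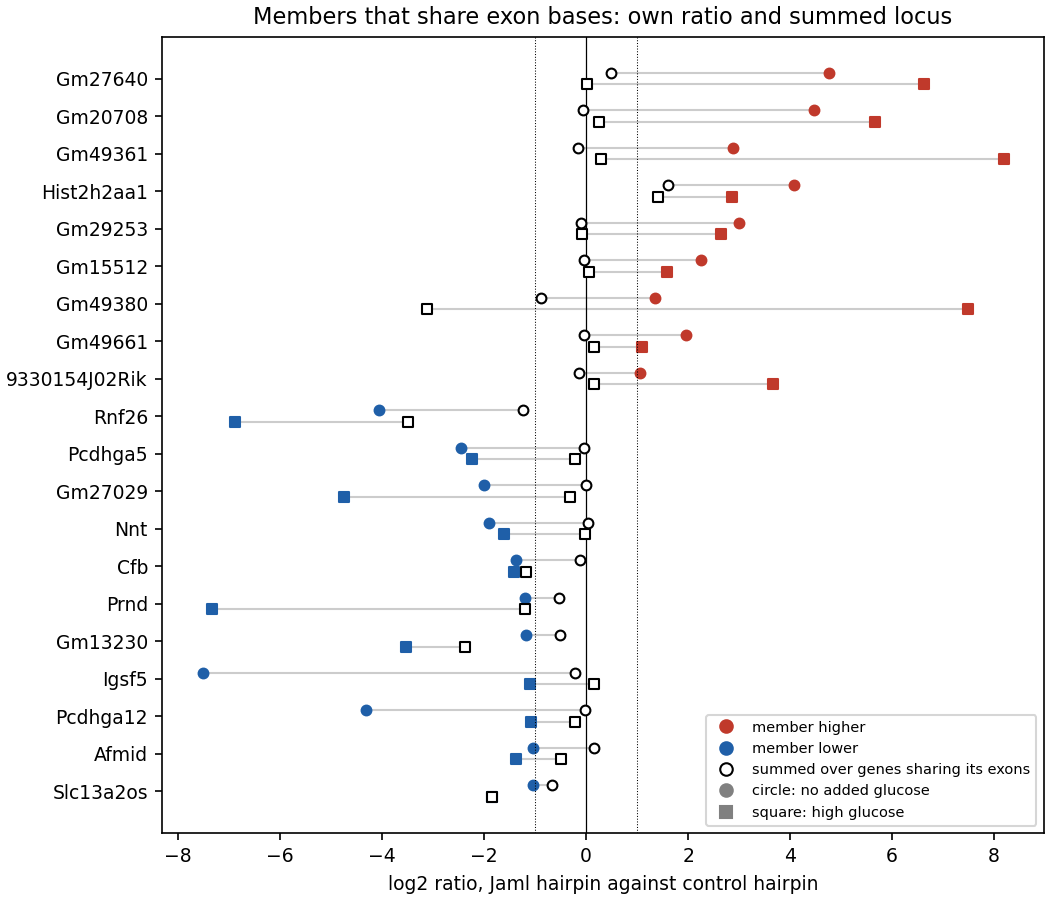
Log2 ratio of the Jaml hairpin line to the control line (x axis) for the 20 genes that share at least 10% of their exon bases, as the single gene (filled) and summed over all genes sharing its exons (open), with circles for the pair without added glucose and squares for high glucose. The open symbols lie past the dotted 2-fold lines on the same side in both pairs for Hist2h2aa1 and Rnf26, and not for the other 18.

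Glucose ratios were not used to choose the 72 genes, although they come from the same libraries. Each library enters both a glucose ratio and a hairpin ratio. For a lower gene, a high sh-NC/HG or a low sh-JAML value raises a glucose ratio, and a high sh-NC or a low sh-JAML/HG value lowers one. The glucose ratios of both lines are therefore tied to the values that the rule used. In the control line 21 of the 72 were at least 2-fold higher in high glucose, against 4.65% of all genes, and 6 were at least 2-fold lower, against 3.27%. In the Jaml hairpin line 14 were at least 2-fold higher, against 1.31% of all genes, and 5 lower, against 1.56%. For 1 of these 5, Cxcl5, both hairpin-line libraries were under the floor, so no fold is measured there. The genes higher with glucose were mostly those lower with the Jaml hairpin. Of these 48, 39 had a glucose log2 ratio above 0 in the control line, against 50.2% of all genes. In the Jaml hairpin line 33 did, against 49.9%, and in both lines 28, against 25.7%. The median over both lines was 0.71 for the 48 and -0.07 for the 24 higher genes, against 0.00 for all genes tested. These values are a description, since 21 of the 48 met the count minimum only through sh-NC/HG. Of the other 27, 6 were at least 2-fold higher with glucose in the control line and 5 in the Jaml hairpin line, 16 were above 0 in both, and the median was 0.33. A mean count under 100 was found for 23 of the 48. With a minimum mean count of 200, 5 genes (Hist2h2aa1, Rnf26, Lcp1, Plcl1 and Cxcl5) were at least 2-fold higher with glucose in the control line and 0 in the Jaml hairpin line.

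Of the 48, 7 were at least 2-fold higher with glucose in both lines, against 0.331% of all genes. They were Lama1, Pde4d, Sp5, Fam167a, Fam131c, Myh14 and Myo15. The count minimum favours this number, because 6 of the 7, all but Pde4d, met it only through sh-NC/HG, where they were highest. In the Jaml hairpin line the counts were low, and sh-JAML was under the floor for Myo15, Lama1 and Fam167a. There the interval of the glucose ratio includes 1 for Lama1 (0.388 to 24.9), Fam167a (0.272 to 20.97) and Sp5 (0.773 to 11.2). Myo15, an unconventional myosin of hair cells, stood at 0.290, 1.71, 0.0873 and 0.462 CPM, with glucose log2 ratios of 2.51 and 2.25. Myh14, a non-muscle myosin heavy chain, stood at 0.667, 2.15, 0.250 and 0.864 CPM, with 1.67 and 1.74. Sp5, a zinc-finger factor induced by Wnt signals, stood at 0.655, 1.95, 0.225 and 0.533 CPM, with 1.56 and 1.20. In each of these 3 genes both high-glucose libraries were above the library of the same line without it, and in Myo15 and Myh14 the hairpin lines overlapped. Fam167a stood at 0.164, 1.77, 0.0749 and 0.201 CPM and Fam131c at 0.554, 1.71, 0.200 and 0.817 CPM. Pcdhga5 and Gm29253 were at least 2-fold lower with glucose in both lines, against 0.261% of all genes, and both share exons with other genes. Summed over those genes the glucose log2 ratios were 0.99 and 0.80 for the locus of Pcdhga5 and -0.17 and -0.17 for that of Gm29253.

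The glucose term of an additive edgeR quasi-likelihood model over all 14187 genes, with hairpin as the other term and 1 residual degree of freedom, called 1 gene (0.00705%) and 0 of the 72, whose lowest Benjamini-Hochberg adjusted p was 0.750. At an unadjusted p under 0.05 it held 12 of the 72, against 2.8% of all genes. The 12 include Des, Myo15, Sp5, Myh14, Fam131c and Fam167a, which met the count minimum only through sh-NC/HG. A high sh-NC/HG value also raises the glucose term, so this share is a description. Pde4d, Cfb and Hist2h2aa1, also among the 12, met the minimum without that library, and Pcdhga5 and Gm29253 share exons with other genes. The error of this model is the disagreement between the 2 pairs, which the rule that chose the genes also limits. DESeq2 called 53 genes (0.374%, and 3.87% at an unadjusted p under 0.05), of which 1 was among the 72: Pcdhga5, with an adjusted p of 0.0290, and it was lower with glucose in 2 of 2 lines, while the summed gamma-protocadherin cluster was higher in both. Limma-voom called 0.

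**Figure D5:**
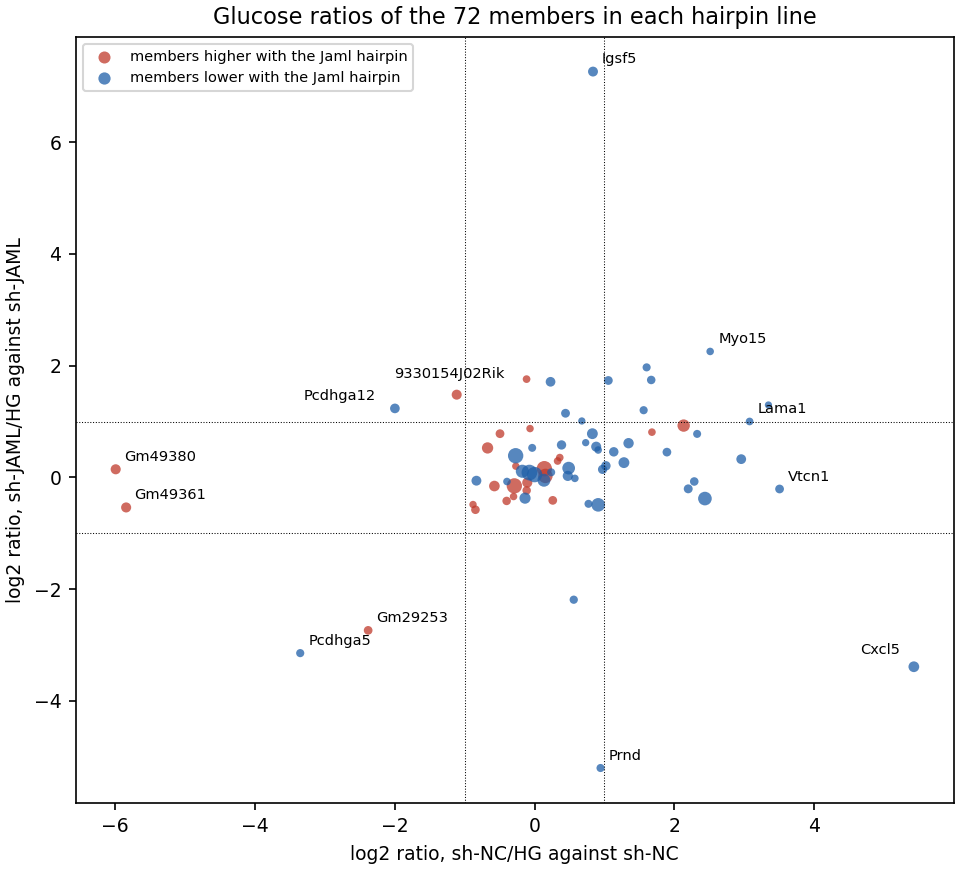
Glucose log2 ratio in the control line (x axis, sh-NC/HG against sh-NC) and in the Jaml hairpin line (y axis, sh-JAML/HG against sh-JAML) for the 72 genes, red for those higher and blue for those lower with the Jaml hairpin, with larger points for higher mean counts and dotted lines at 2-fold. Blue points lie mostly to the right of 0, and 7 of them are past 2-fold in both lines; Cxcl5, far right and low, rests on y values under the floor.

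Of 52 lists of pathways and cell types, 11 held at least 1 of the 72 genes. Together they held 10 of the 72 among 1058 listed genes tested (0.945%, against 0.508% of all genes), and 62 of the 72 were in none. Over all genes 0.169% were higher and 0.338% lower, and the counts of 1 or 2 genes in a list below are a description. The list of NF-kB cytokines and chemokines had 22 measured genes, of which 0 were higher and 1, Cxcl5, was lower, and its median log2 ratio was -0.07 without added glucose and -1.48 with it. The actin cytoskeleton and serum response factor list had 2 lower of 33 (Des and Myh14), with medians of -0.18 and -0.15. DNA methylation genes had 1 lower of 14 (Dnmt3a), with medians of 0.06 and -0.11, and D-type cyclins with CDK inhibitors had 1 higher of 14 (Ccnd3), with medians of -0.03 and 0.35. Laminins and related matrix genes had 1 lower of 24 (Lama1), and collagens 1 lower of 24 (Col6a3). The sterol synthesis list, 25 genes with medians of -0.35 and -0.28, held none, nor did fatty acid and triglyceride synthesis (26 genes, -0.14 and -0.17) or fatty acid oxidation (26 genes, 0.04 and 0.14). The podocyte list held none of the 72 among 18 measured genes, with medians of -0.08 and 0.11. The median over all genes tested was 0.00 in both pairs.

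By annotation, 53 of the 72 are protein-coding (73.6%, against 85.1% of all genes tested), with 12 of the 24 higher and 41 of the 48 lower. Predicted or clone names made up 16 of the 24 higher genes and 6 of the 48 lower ones. Chromosome 11 held 10 of the 72 among 1123 genes tested, chromosome 14 held 6 among 479 (1.25%), and chromosome X held 0 among 401. In all 5 pairs lay within 100 kb of each other, of which 3 share exons. Cdnf (higher) and Fam107b (lower) are 44111 bases apart on chromosome 2. Sp5 and Gad1os, both lower, are 12210 bases apart on the same chromosome.

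The 2-fold threshold cut through a continuous range. Just inside were Gm43029 (log2 ratios 1.02 and 1.001), Tex15 (1.002 and 2.28) and Wasf3 (-1.01 and -1.84). Just outside were Gm16861 (1.08 and 0.997), Gm30873 (-0.996 and -0.986) and Vkorc1l1, a vitamin K cycle enzyme, whose log2 ratios were 0.999 and 1.35 at a mean count of 2798.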

How the data were processed

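The authors deposited 1 table with an expected count (estimated count) for each Ensembl gene in each library, made from aligned reads and, from the values in the file, without scaling between libraries. CASAVA 1.8, TopHat2 2.0.6 and build mm10 are listed, with no role or order, per the submitters' processing notes. Per the labels' protocols, libraries followed the TruSeq RNA guide. The sources used here do not state the counting tool, its annotation or its strand setting. A pair of columns name no hairpin and were matched by condition to the control hairpin samples. The series' design text speaks of 4 treated and 4 untreated samples, and 4 libraries were analysed here. Low values piled up at multiples of 4, so 4 units were taken as 1 fragment in counting intervals and in the floor of 3 fragments (12 units). A single line without a gene was left out.

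Symbols and positions came from GENCODE M21 (55480 of 56393 genes matched), promoters and microRNAs from RefSeq (GRCm38.p6). TMM scaling used edgeR 4.0.16 in R 4.3.3, with a prior count of 1 in each log2 ratio. Members had a mean count of at least 50 and a ratio of at least 2-fold the same way in both pairs. Intervals are exact 95% intervals (Clopper-Pearson on the share of 1 library in the total of a pair), and reads without molecular identifiers are not independent molecules. The glucose term was tested by edgeR's quasi-likelihood test on rounded counts, with DESeq2 1.42.0 and limma 3.58.1 as alternatives, and Benjamini-Hochberg adjustment at 0.05. The fit was also run on simulated counts that held glucose effects and noise but no hairpin effect. That run does not show how the fit behaves where the 2 pairs disagree beyond noise. Nothing in the labels says that libraries are separate cultures of one kind. The p-values set the glucose difference against the disagreement between the 2 pairs, and not against a spread of replicates.

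The members and gene lists were chosen with earlier results of these data known. Named genes were Jaml, up to 15 members per direction with mean count at least 100 and under 10% shared exon bases, list members, genes at the threshold, members with like glucose differences in both lines and members within 100 kb of each other. Other genes named were chosen after their values were seen, as were the relatives and the summed loci.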

Additional observations from a re-analysis of the deposited data

Results flagged for a closer look

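In 2 of the 72 genes glucose went at least 2-fold in opposite directions in the control line and in the Jaml hairpin line, with 1 library per group and at least 1 library of each line above the floor, and the difference between the lines was not tested. Pcdhga12 had a glucose log2 ratio of -1.997 in the control line and 1.24 in the Jaml hairpin line, where the counting interval of the fold, 0.825 to 8.84, includes 1. It shares its constant exons with the gamma-protocadherin cluster. The lncRNA gene 9330154J02Rik had -1.11 and 1.48, with 22.1% of its exon bases shared and an interval in the control line, 0.924 to 5.12, that includes 1.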

How the results depend on the processing

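No analysis paired by replicate number was possible because the groups share fewer than 2 replicate numbers. Glucose was tested by a model with hairpin as a term, which gives 1 glucose effect over both lines. The count of 72 genes (24 higher, 48 lower) was within 1.5 times under the other scalings (71, 71 and 74), a prior count of 4 (63) or 0 (76), and summed loci (54). It was 365 (136 higher, 229 lower) at a minimum mean count of 10, 1439 (691, 748) with no minimum and 20 (7, 13) at a minimum of 200. It was 281 (112, 169) at 1.5-fold and 17 (6, 11) at 3-fold. It was 46 with the counting interval also past 1 in both pairs, 30 of them lower, and 15 genes were higher with under 10% shared exon bases. Leaving out 1 library at a time (chosen after seeing the data), so that 1 pair uses the other library of that line, gave 159 to 718 genes, 44 to 254 higher and 60 to 464 lower, of which 43 to 68 were among the 72. The lowest overlap, 43, came without sh-NC/HG and without sh-JAML. With a minimum mean count of 200 the members at least 2-fold apart with glucose were 5 higher and 0 lower in the control line, and 0 higher and 1 lower (Cxcl5, under the floor) in the Jaml hairpin line. With the minimum set on the mean of the other libraries than sh-NC/HG (chosen after seeing the data), 51 genes were left, 24 higher and 27 lower, of which 8 were higher with glucose in the control line, and 7 higher and 2 lower in the Jaml hairpin line. Over all genes the glucose term called 1 gene in edgeR, 53 with DESeq2 (1 of the 72), 0 with limma-voom (435 at an unadjusted p under 0.05) and 0 with no count minimum (500). The cause of these changes was not tested, beyond fewer or more genes entering. All 400 recomputed values of single named genes kept their direction and lay within the counting interval, but 11 of them, all without added glucose, fell under 2-fold. These were Tex15 with DESeq2 size factors (log2 0.999), Ackr3, Fam167a, Lama1 and Wasf3 with library totals only, and Tex15, Cxcl5, Aim2, Fam167a, Lama1 and Wasf3 with a prior count of 4, where Fam167a was at -0.79. Depth limits the 37 genes with a mean count under 100, and a single library per group gives no spread for any ratio.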
